A study of Arabidopsis thaliana with 2 samples.

Results

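A group of 148 nuclear genes of Arabidopsis thaliana gave signal in the sap of leaf trichomes and a signal at least 4 times as high in the sap of leaf pavement cells. They are 148 of the 13356 genes that could be named on the arrays. The members were chosen by the values themselves: the log2 signal in trichome sap had to lie above 2.58, the highest reading of the Bacillus control probe sets, and the difference, pavement minus trichome, had to be at least 2 on the log2 scale. Of 1600 nuclear genes above that ceiling in trichome sap, 175 had such a difference, which is 10.9% of them. From these, 20 genes for cytosolic ribosomal proteins and 7 others (COR47, AT1G54410, AT2G46600, RCA, PSAE-1, LHCB4.1 and LHCB4.2) were set aside. A difference of that size in favour of trichome sap was found for 14 of the 1600, or 0.875%. The 175 are 15.8% of the 1105 nuclear genes above the ceiling in both saps, and 269 nuclear genes of 13265, or 2.03%, had such a difference when genes at background in trichome sap are counted too.

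The study compared the transcripts of 2 cell types of the leaf epidermis. Both samples came from plants of the accession Columbia-0 that were 5 weeks old and grown under long days, with no mutation or treatment named. Contents of pavement cells and of trichomes were drawn with microcapillaries, total RNA was extracted, amplified in 1 round, labelled with biotin and hybridised to Affymetrix arrays. There was 1 array for pavement sap and 1 for trichome sap, so no value has a replicate error and no difference was tested. The labels do not say how many cells or plants each sample pooled. Fewer cells drawn and less RNA per cell cannot be told apart in such samples.

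Pavement cells are the interlocking ground cells of the leaf surface, and trichomes are single branched cells that grow out of it and whose nuclei replicate their DNA without dividing. Both are living epidermal cells, with the machinery common to plant cells: protein turnover, vacuole, cell wall and small chloroplasts. Sap drawn with a capillary is mostly vacuole and cytoplasm of the cell that was pierced. Photosynthetic transcripts of the leaf are most abundant in the mesophyll, the green tissue under the epidermis.

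The defining markers say little about the labels, because few had a probe set with 1 gene name. Of 9 epidermal markers 1 was measured, the receptor kinase ACR4, and it read 1.68 in pavement sap and 2.08 in trichome sap, at background in both. Of 8 trichome markers 2 were measured: TRY, an inhibitor of trichome fate, read 1.97 in pavement sap and 1.99 in trichome sap, and SIM, a cell-cycle inhibitor of trichomes, read 2.06 in pavement sap and 2.79 in trichome sap. Of 7 markers of the stomatal lineage 3 were measured (SPCH, MUTE and FAMA), with a summed linear signal of 12.1 in pavement sap and 21.2 in trichome sap. All 3 stood just above the ceiling in trichome sap, at 2.62, 2.96 and 2.87, and at background in pavement sap. The phloem transporter gene SWEET11, the 1 measured of 6 phloem markers, read 2.14 in pavement sap and 2.08 in trichome sap. None of these markers is among the 148 genes.

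The signals of the 148 genes lay between 4.82 and 13.1 in pavement sap, with a median of 7.03, and between 2.60 and 7.48 in trichome sap, with a median of 3.47. The difference had a median of 3.31, with quartiles of 2.66 and 4.25. Over the 1600 nuclear genes above the ceiling in trichome sap the median difference was 0, and over the 1105 above it on both arrays it was 0.34. A difference between 2 and 3 was found for 56 of the genes, between 3 and 4 for 47, and of 4 or more for 45. These values describe the choice and are no test of it. Every one of the 148 genes rests on 1 probe set. Where other genes had more than 1, the difference varied between a gene's probe sets with a pooled SD of 0.52 over 146 genes and 0.95 over the 36 of them with a signal above the ceiling. That spread covers neither sampling nor amplification.

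**Figure D1:**
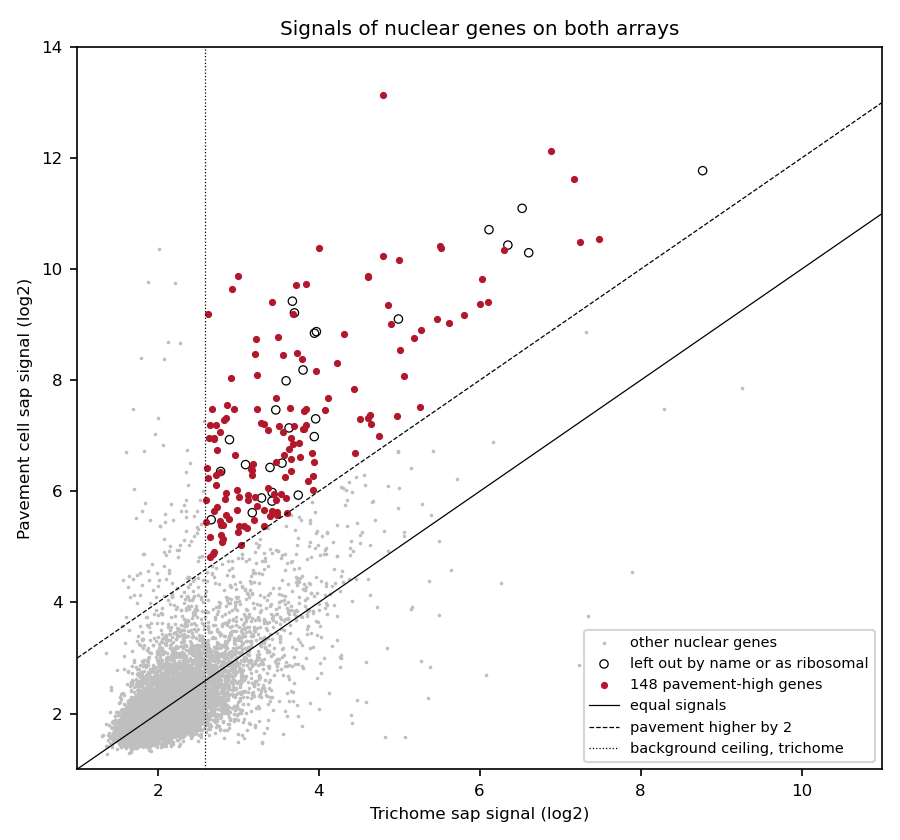
Log2 signal in pavement cell sap (vertical axis) against log2 signal in trichome sap (horizontal axis) for 13265 nuclear genes. The 148 pavement-high genes (red) lie right of the background ceiling of 2.58 and above the line of a difference of 2, open circles are the 27 genes set aside, and the red points spread from 4.82 to 13.1 in pavement sap but from 2.60 to 7.48 in trichome sap.

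The choice has 2 edges. Just inside the difference of 2 stood AT3G24190, AT2G47380 and AT5G58950, with differences of 2.056, 2.008 and 2.002, and just outside it AT1G28140, AT1G17080 and F2KP, with 1.99, 1.98 and 1.98. Just inside the ceiling, AT4G14270 read 5.44 in pavement sap and 2.60 in trichome sap, AT3G26070 read 5.85 and 2.60 in the same order, and ALDH11A3 read 6.42 in pavement sap and 2.61 in trichome sap. Just under it, the cold-regulated gene COR15A read 7.27 in pavement sap and 2.58 in trichome sap, and AT3G09630 read 6.01 in pavement sap and 2.56 in trichome sap. Genes on either side of each edge differed little in the value that set it.

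The deposited scale carries an offset between the arrays at high signal. The 18 hybridisation control probe sets, for bacterial and phage transcripts that are added to a hybridisation, read a median of 11.7 on the pavement array and 8.50 on the trichome array. Their difference had a median of 3.15, between 1.94 and 3.54. The 27 Bacillus probe sets, at background, had a median difference of -0.07. No hybridisation control read below 6.88, so the offset was not measured between that level and background. Most of the 148 genes lie there in trichome sap. Of the 148 genes, 82 had a larger difference than the control median and 66 a smaller one. Relative to the controls 82 genes were therefore higher in pavement sap and 66 were lower. After quantile normalization 129 were higher in pavement sap and 18 lower, and after a lowess correction for mean level 118 were higher and 30 lower. Over the 1600 nuclear genes above the ceiling in trichome sap, 1501 were lower in pavement sap relative to the controls. Quantile normalization left 1248 of the 1600 lower, and the lowess correction left 1224. Since the 148 were chosen for a large difference, nothing is read from these counts. Quantile normalization moved the median difference of the 1105 genes above the ceiling on both arrays to -0.29, the lowess correction moved it to -0.22, and centring on the controls lowered every difference by 3.15. The part of this offset in each gene's difference was not tested. The lowess curve was fitted to all genes, the 148 included. Few genes lie at high signal, and how well the curve fits there was not tested. Directions below are those of the deposited scale, and where one of the 148 genes described turns under another scaling, this is given with it. Of the genes next to the edges, AT3G24190, AT2G47380, AT5G58950 and AT4G14270 were lower in pavement sap relative to the controls, with differences of -1.09, -1.14, -1.15 and -0.31. Just outside the difference of 2, AT1G28140, AT1G17080 and F2KP were lower too, with -1.16, -1.17 and -1.17.

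**Figure D2:**
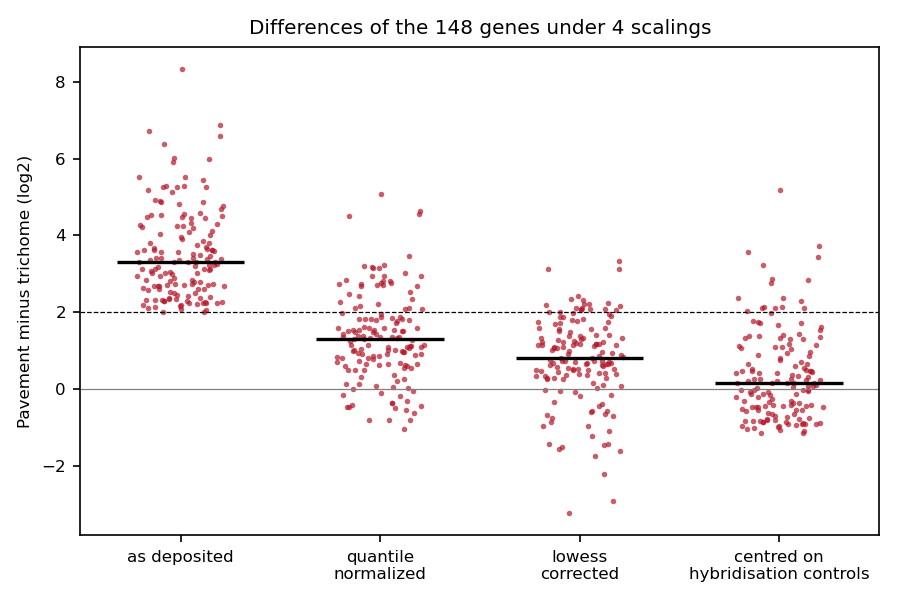
Pavement minus trichome difference (log2) of each of the 148 genes on the deposited scale and under 3 other scalings of the arrays, with the horizontal bar at the median and points spread sideways for legibility. The median was 3.31 as deposited, 1.31 after quantile normalization, 0.81 after lowess correction and 0.16 after centring on the hybridisation controls, and genes below the grey line at 0 are lower in pavement sap under that scaling.

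Of the 148 genes, 31 have a gene name in the annotation, and they are described first by what their products do. Their median difference was 3.36, against 3.30 for the 117 that have a locus identifier alone. Among the 31, 8 encode chloroplast proteins, 5 enzymes of metabolism, 6 proteins of proteolysis and autophagy, 5 proteins of membranes and the cell wall, and 7 nuclear, RNA-binding or other proteins.

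The 8 chloroplast genes had a median difference of 3.70. PSBW, a small subunit of photosystem II, read 12.14 in pavement sap and 6.88 in trichome sap, a 38.2-fold difference as deposited. After the lowess correction PSBW was lower in pavement sap, with a difference of -1.51. CURT1A, which bends thylakoid membranes at the margins of grana, read 9.19 in pavement sap and 3.68 in trichome sap, which is 45.6-fold. CaS, a calcium-binding protein of the thylakoid membrane, read 7.48 in pavement sap and 2.67 in trichome sap, close to the ceiling. Both kept their direction under the 3 other scalings.

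The Calvin cycle, which fixes carbon dioxide in the chloroplast stroma, was represented by a pair of enzymes. SBPASE, sedoheptulose-bisphosphatase, read 8.17 in pavement sap and 3.97 in trichome sap, a difference of 4.20. PRK, phosphoribulokinase, which makes the acceptor of carbon dioxide, read 6.38 in pavement sap and 3.17 in trichome sap, a difference of 3.21 that was 0.06 relative to the hybridisation controls. FUG1, an initiation factor of chloroplast translation, read 6.85 in pavement sap and 3.68 in trichome sap, and its difference of 3.17 was 0.02 relative to the controls. These differences thus ranged from about that of the controls to 1.05 above it.

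A pair of genes for electron flow around photosystem I had smaller differences. NdhS, a subunit of the chloroplast NADH dehydrogenase-like complex, read 6.28 in pavement sap and 3.93 in trichome sap, a difference of 2.35 that turned to -0.073 with the lowess correction and to -0.80 relative to the controls. PIFI, a chloroplast protein needed for electron donation through that complex, read 5.58 in pavement sap and 3.48 in trichome sap, a difference of 2.10 that turned to -1.05 relative to the controls.

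Set against the other nuclear photosynthesis genes, these were not alone and not general. The list of nuclear photosynthesis genes, taken from gene names, had 17 measured members, of which 14 were above the ceiling in pavement sap and 13 in trichome sap. Their summed linear signal was 7850 in pavement sap and 284 in trichome sap, and 3350 in pavement sap and 166 in trichome sap without PSBW, the largest single part of the sum. Of the 13 genes, 8 had a difference of at least 2: PSBW, CURT1A, SBPASE and PRK, and 4 of the genes set aside. Over all nuclear genes above the ceiling in trichome sap the share is 10.9%, and since the choice used these values nothing is read from the count. The 5 others were ATPC1, the gamma subunit of the chloroplast ATP synthase, at 5.49 in pavement sap and 3.90 in trichome sap, CURT1C at 5.14 and 3.27 in the same order, PSBY, a photosystem II protein, at 3.92 in pavement sap and 3.50 in trichome sap, TROL, a thylakoid rhodanese-like protein, at 3.87 in pavement sap and 3.72 in trichome sap, and TAPX, the thylakoid ascorbate peroxidase, at 3.09 in pavement sap and 2.65 in trichome sap. PSAN, a photosystem I subunit, read 5.77 in pavement sap but 2.16, at background, in trichome sap, so it is not among the 148. The median difference over the 17 genes was 3.21 as deposited and 0.06 relative to the hybridisation controls, 0.40 after the lowess correction and 1.35 after quantile normalization. Relative to the controls ATPC1, CURT1C, PSBY, TROL and TAPX were lower in pavement sap, and ATPC1, PSBY and TROL also under both other scalings. The part of photosynthetic signal in the differences of the other genes was not tested.

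The 5 metabolic genes had a median difference of 3.80. cICDH, the cytosolic isocitrate dehydrogenase that makes NADPH and 2-oxoglutarate, read 9.74 in pavement sap and 3.84 in trichome sap. The difference of 5.90, or 59.9-fold, was the largest of the named genes on the deposited scale, and it stayed positive under each other scaling, between 1.80 and 2.93. CYP71B6, a cytochrome P450, read 6.74 in pavement sap and 2.73 in trichome sap. ALDH11A3, a glyceraldehyde-3-phosphate dehydrogenase of the cytosol that makes NADPH without forming ATP, had a difference of 3.80 with a trichome signal at the edge of the ceiling.

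FDH, formate dehydrogenase of mitochondria, read 5.90 in pavement sap and 3.21 in trichome sap, a difference of 2.69 that was -0.46 relative to the controls. SAMDC, S-adenosylmethionine decarboxylase of polyamine synthesis, read 7.30 in pavement sap and 4.51 in trichome sap. Its difference of 2.79 turned under all 3 other scalings, to -0.36 relative to the controls, -0.45 with the lowess correction and -0.17 with quantile normalization. For SAMDC the direction is thus that of the deposited scale alone.

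The 6 genes of proteolysis and autophagy had a median difference of 3.79. UBC28, a ubiquitin-conjugating enzyme, read 11.62 in pavement sap and 7.17 in trichome sap. Its difference of 4.45 turned to -2.21 with the lowess correction. ATG8F, a ubiquitin-like protein that is attached to the autophagosome membrane, read 8.90 in pavement sap and 5.27 in trichome sap. Its difference of 3.63 was 0 after quantile normalization and -0.77 with the lowess correction.

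GAMMA-VPE, a vacuolar protease that matures other vacuolar proteins, read 8.31 in pavement sap and 4.23 in trichome sap, a difference of 4.08. AFR, an F-box protein of phytochrome A signalling, read 7.22 in pavement sap and 3.28 in trichome sap. Both kept their direction under each other scaling. TPP2, a very large peptidase complex that trims peptides, read 6.87 in pavement sap and 3.76 in trichome sap, a difference of 3.11 that was -0.036 relative to the controls. APA1, a vacuolar aspartic protease, read 4.88 in pavement sap and 2.68 in trichome sap, and its difference of 2.20 was -0.95 relative to the controls.

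The 5 genes of membranes and wall had a median difference of 3.31. NCL, a sodium-calcium exchanger, read 10.34 in pavement sap and 6.30 in trichome sap, a difference of 4.04 that turned to -1.57 with the lowess correction. TET8, a tetraspanin found on plant extracellular vesicles, read 9.88 in pavement sap and 4.61 in trichome sap, a difference of 5.28 that stayed positive under each other scaling. ACYB-2, a cytochrome b561 that passes electrons from ascorbate across a membrane, read 6.96 in pavement sap and 3.65 in trichome sap. Of the wall enzymes, EXGT-A3 (XTH27), which cuts and rejoins xyloglucan, read 6.02 in pavement sap and 2.99 in trichome sap, and the pectin methylesterase PMEPCRF read 5.72 in pavement sap and 2.73 in trichome sap. Relative to the controls the differences of these wall enzymes turned to -0.12 for EXGT-A3 and -0.16 for PMEPCRF.

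The 7 remaining named genes had the smallest median difference of the 5 groups, 2.73. MAC3B, a U-box protein of a spliceosome-associated complex, read 9.01 in pavement sap and 4.90 in trichome sap, a difference of 4.11 that was -0.16 with the lowess correction. CP5 read 9.87 in pavement sap and 4.61 in trichome sap. DI19, a zinc-finger protein named for induction by drought, read 7.20 in pavement sap and 3.84 in trichome sap. CP5 and DI19 stayed higher in pavement sap under each other scaling.

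BZIP60, a transcription factor of the endoplasmic reticulum stress response, read 6.02 in pavement sap and 3.93 in trichome sap, and its difference of 2.09 turned under all 3 other scalings, to between -1.05 and -0.090. RBP45B, an RNA-binding protein, read 5.85 in pavement sap and 3.12 in trichome sap. OBE1, a PHD-finger protein of meristem and embryo development, read 5.85 in pavement sap and 3.47 in trichome sap. YLS5, a protein of the DJ-1 family, read 5.10 in pavement sap and 2.80 in trichome sap. Relative to the controls, RBP45B, OBE1 and YLS5 turned to -0.42, -0.77 and -0.86.

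**Figure D3:**
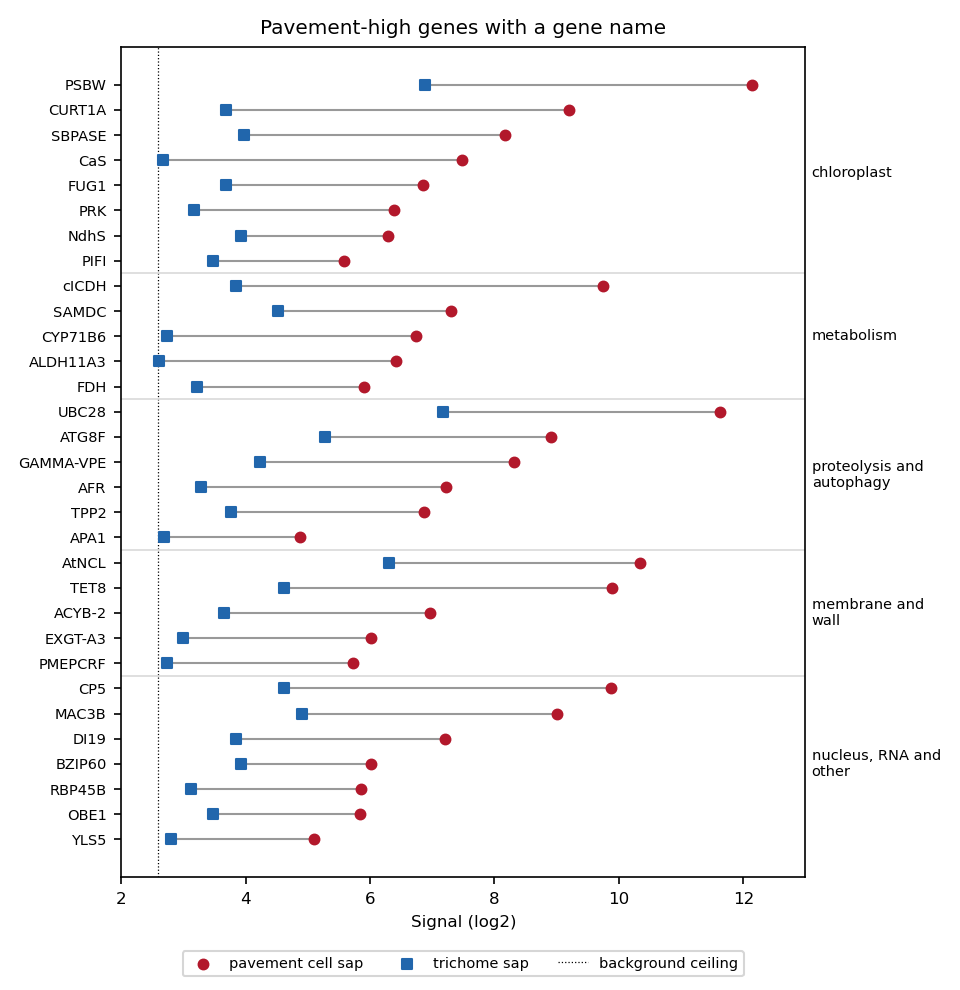
Log2 signal in pavement cell sap (red circles) and trichome sap (blue squares) of the 31 pavement-high genes that have a gene name, 1 array each, grouped by role and ordered within a group by pavement signal, with the background ceiling of 2.58 dotted. PSBW and UBC28 lie furthest right on both arrays, and CaS, CYP71B6, ALDH11A3, APA1 and PMEPCRF have trichome signals next to the ceiling; on other scalings some of these genes turn direction, as the text gives for each.

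Relatives of these genes on the array mostly read at background or had smaller differences on the deposited scale. In 12 gene families with a member here, chosen after the values were seen, 1 gene of each was among the 148. In all but the aldehyde dehydrogenases it was also the 1 gene of its family with a difference of at least 2. Since the members were chosen for that difference, this is a description of the choice. Any relative with a difference under 3.15 is lower in pavement sap relative to the controls, which holds for all relatives named below except ALDH7B4, ALDH2C4 and ALDH10A8. The relatives read below the lowest hybridisation control, at 6.88, so the offset was not measured at their signals. APG8H, CYP71B26, BZIP53, RBP45C, PME61 and ALDH3F1, higher in pavement sap as deposited, were lower there after the lowess correction and after quantile normalization as well. Of 9 ATG8 genes measured, 6 were above the ceiling. Beside ATG8F, APG8H read 6.07 in pavement sap and 4.31 in trichome sap, ATG8C read 3.95 in pavement sap and 2.96 in trichome sap, and ATG8G read 3.58 in pavement sap and 4.01 in trichome sap. The ATG8 genes thus held differences from -0.47, for APG8A, to 3.63, for ATG8F, as deposited.

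The ceiling was passed by 2 of 15 tetraspanin genes: TET8, and TET3 at 4.04 in pavement sap and 2.39 in trichome sap. Of 4 VPE genes, GAMMA-VPE alone passed it. Among 22 bZIP genes, 6 were above the ceiling. BZIP53 read 5.30 in pavement sap and 3.71 in trichome sap, while BZIP17 and BZIP28, which like BZIP60 act in the endoplasmic reticulum stress response, read 2.38 and 2.60 in pavement sap and 2.81 and 2.01 in trichome sap. RBP45C, the relative of RBP45B, read 3.74 in pavement sap and 3.52 in trichome sap.

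Of 19 CYP71B genes 7 were above the ceiling. CYP71B26 read 5.10 in pavement sap and 3.90 in trichome sap, a difference of 1.20 beside the 4.01 of CYP71B6. Among 10 XTH genes XTH18 was the other one above the ceiling, at 2.51 in pavement sap and 2.77 in trichome sap, and of 4 pectin methylesterase genes PME61 was, at 3.02 in pavement sap and 2.91 in trichome sap. IDH-V, a catalytic subunit of the mitochondrial isocitrate dehydrogenase, read 3.08 in pavement sap and 2.01 in trichome sap beside cICDH, with 2 of 6 such genes above the ceiling. Of 8 genes of the chloroplast NADH dehydrogenase-like complex, NdhN was the other one to reach the ceiling, at 2.58 in pavement sap and 2.33 in trichome sap. Of 3 CURT1 genes 2 were above it, CURT1A and CURT1C, with differences of 5.51 and 1.87.

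The aldehyde dehydrogenases were the exception. Of 8 genes, 4 had a difference of at least 2, but 3 of them were at background in trichome sap and so fall outside the 148. ALDH7B4, which is induced by drought and salt, read 6.74 in pavement sap and 2.36 in trichome sap, ALDH2C4, of ferulic and sinapic acid synthesis, read 6.51 in pavement sap and 2.40 in trichome sap, and ALDH10A8 read 5.80 in pavement sap and 1.84 in trichome sap. ALDH3F1 read 5.27 in pavement sap and 5.06 in trichome sap. ALDH11A3 itself stood next to the ceiling in trichome sap, so what set it apart from these 3 relatives was a trichome signal of 2.61 against 1.84 to 2.40.

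**Figure D4:**
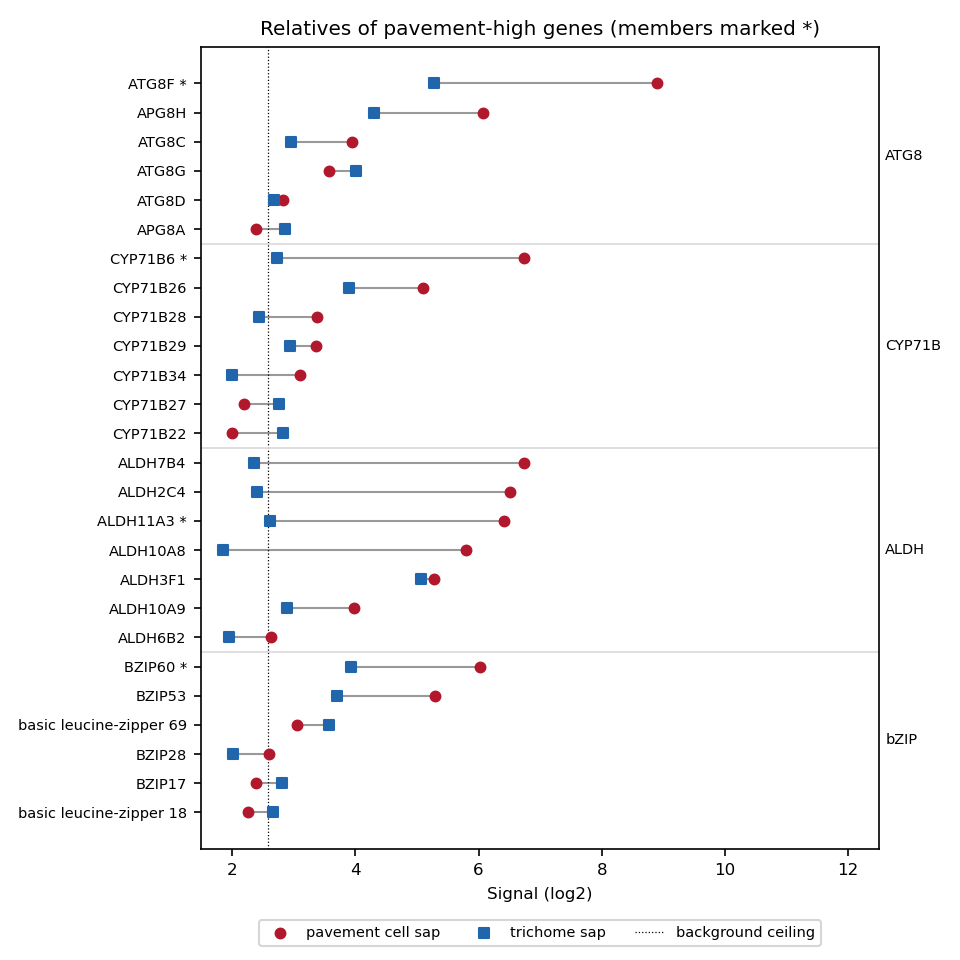
Log2 signal in pavement cell sap (red circles) and trichome sap (blue squares) of the genes above the background ceiling (dotted, 2.58) on at least 1 array in 4 families; members are marked with an asterisk. ATG8F, CYP71B6 and BZIP60 have the widest gap of their family as deposited, while 3 aldehyde dehydrogenases apart from ALDH11A3 have gaps about as wide with a trichome signal under the ceiling; BZIP60 and ATG8F lose that direction under at least 1 other scaling.

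Of 21 lists of genes made from words in gene names, 10 held at least 1 of the 148 genes, 11 held none, and 2 of these had no measured gene. Lists are given here with the number above the ceiling in trichome sap. Beside photosynthesis, the members were 2 of 11 genes for proteases and their inhibitors (TPP2 and APA1), 2 of 8 for the cell wall (EXGT-A3 and PMEPCRF), 1 of 4 for ubiquitin and the proteasome (UBC28) and 1 of 6 for carbon metabolism (cICDH). They were also 1 of 4 for amino acid and sulfur metabolism (SAMDC) and 1 of 7 for cold and drought stress (DI19), where COR47 and AT1G54410, which were set aside, met the values too. Of 11 genes for defence and secondary metabolism, 2 were members, CYP71B6 and SAMDC, and the second is an enzyme of polyamine synthesis. Of 6 genes for signalling 3 were members, but SBPASE and PRK came in through the words phosphatase and kinase, and CaS is the calcium-binding one. The single gene in the list for mitochondrial respiration was NdhS, which works in the chloroplast. Of 8 genes for transcription factors and 6 for redox and oxidative stress, none was a member; BZIP60 carried none of the words of that list. The background share for comparison is 10.9%, and with 1 to 4 genes per list these counts describe the names and no more.

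Of the 15 largest differences 11 belonged to genes that have no name in the annotation, which is 73.3%, and over all 148 genes the share without a name is 79.1%. A gene name was listed for 243 of the 1600 nuclear genes above the ceiling in trichome sap and for 31 of the 148. Missing names are thus no trait of the group. AT2G25510 read 13.13 in pavement sap and 4.80 in trichome sap, a difference of 8.33, or 321-fold as deposited. It was followed by AT5G38980, at 9.874 in pavement sap and 2.999 in trichome sap, AT2G25450, at 9.64 in pavement sap and 2.92 in trichome sap, AT4G23670, at 9.20 in pavement sap and 2.62 in trichome sap, and AT5G40450, at 10.38 in pavement sap and 4.01 in trichome sap. The next were AT2G26500 (9.72 in pavement sap and 3.71 in trichome sap), AT1G01490 (9.41 in pavement sap and 3.42 in trichome sap), AT2G15960 (8.74 in pavement sap and 3.22 in trichome sap) and AT2G05540 (10.24 in pavement sap and 4.80 in trichome sap). AT5G22580 and AT3G27770 closed the 15 largest, with differences of 5.29 and 5.26, among which cICDH, CURT1A, TET8 and PSBW were the named ones. Of the 148 genes 18 had a difference of 5 or more.

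Some genes were bright in both saps. Of 22 nuclear genes at 6 or above in trichome sap, 13 had a difference of at least 2. Of these, 8 are among the 148 genes, at the upper end of their range in trichome sap. AT5G39570 read 10.54 in pavement sap and 7.48 in trichome sap, AT3G22240 read 10.49 in pavement sap and 7.25 in trichome sap, AT4G32340 read 9.40 in pavement sap and 6.10 in trichome sap, AT5G54940 read 9.82 in pavement sap and 6.03 in trichome sap, and AT5G64400 read 9.37 in pavement sap and 6.0001 in trichome sap. UBC28, PSBW and NCL were the others. Just under 6 stood AT1G13930, at 9.17 in pavement sap and 5.80 in trichome sap, and AT1G76200, at 9.02 in pavement sap and 5.62 in trichome sap. The 7 genes named here by locus were lower in pavement sap after the lowess correction, with AT5G39570 at -3.22 and AT3G22240 at -2.91, and all but AT5G54940 were also lower after quantile normalization. AT5G39570 was lower relative to the controls too, at -0.089. The limit of the lowess fit at high signal, given above, applies to them. AT4G21620 and AT1G78040, with 10.42 and 10.39 in pavement sap and 5.51 and 5.52 in trichome sap, were among the 10 highest pavement signals. Both turned with the lowess correction, to -0.35 and -0.38. Signals of different probe sets are not measures of relative abundance between genes.

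Among the genes detected in trichome sap, a high pavement signal and a large difference went together. Of 1198 nuclear genes with a pavement signal under 4, none had a difference of at least 2, and of 165 between 4 and 5, 3 did. With trichome signals above 2.58, a pavement signal under 4 cannot give such a difference. Between 4 and 5 there is little room for it. Between 5 and 6 the count was 44 of 91, and between 6 and 7 it was 39 of 54. At 7 or above it was 89 of 92, or 96.7%, and 74 of these are among the 148. Since the pavement signal enters the difference, this relation is a description of the values that made the choice. The share rose with trichome signal as well. It was 46 of 865 between the ceiling and 3 (5.32%) and 13 of 22 at 6 or above (59.1%). The median difference of the 92 genes was 4.16 as deposited and 1.01 relative to the hybridisation controls, where 19 of them had a difference of at least 2.

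The 3 genes at 7 or above that had no such difference were AT5G62350, at 8.87 in pavement sap and 7.32 in trichome sap, AT1G23720, at 7.85 in pavement sap and 9.26 in trichome sap, and AT3G31955, at 7.49 in pavement sap and 8.29 in trichome sap. A further 11 nuclear genes at 7 or above in pavement sap were at background in trichome sap. AT5G62350, higher in pavement sap as deposited, was lower there under all 3 other scalings.

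**Figure D5:**
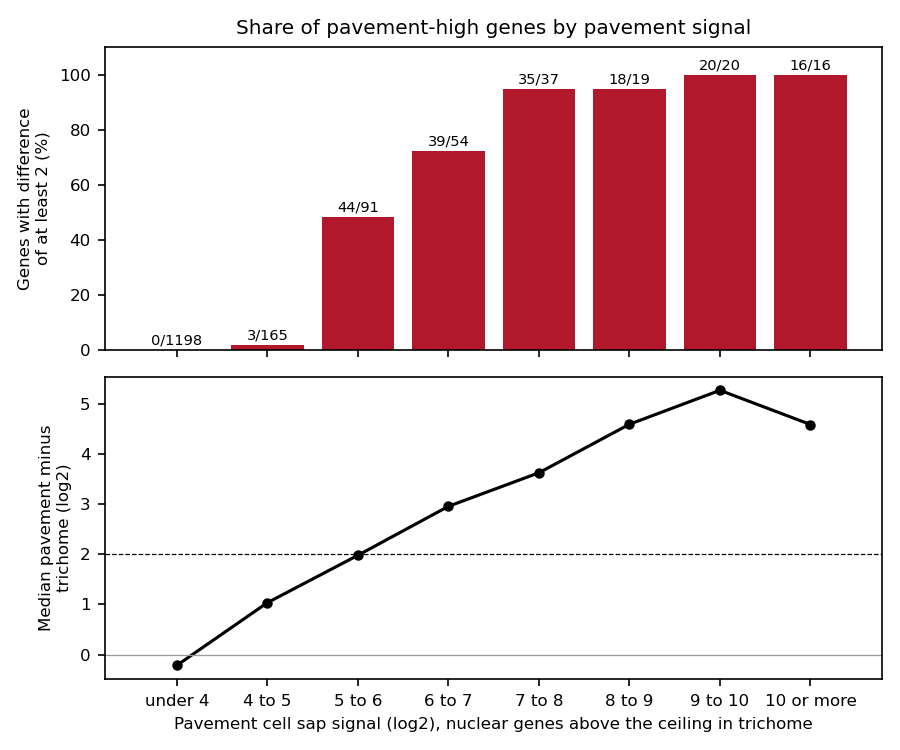
Share of genes with a difference of at least 2 (upper panel, %, with the counts above the bars) and median pavement minus trichome difference (lower panel, log2) by pavement signal, for 1600 nuclear genes above the ceiling in trichome sap. The share is 0 of 1198 below a pavement signal of 4, which the ceiling of 2.58 in trichome sap fixes in advance. It is 16 of 16 at 10 or more, and the values are those of the deposited scale.

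The genes lay on all 5 nuclear chromosomes and are 9.25% of the 1600 nuclear genes above the ceiling in trichome sap. They made up 47 of 393 genes above the ceiling in trichome sap on chromosome 1 (11.96%), 24 of 249 on chromosome 2 (9.64%), 31 of 324 on chromosome 3 (9.57%), 21 of 236 on chromosome 4 (8.90%) and 25 of 398 on chromosome 5 (6.28%). A single pair of them are direct neighbours in the annotation, AT5G19240 and AT5G19250. AT5G19240 read 5.58 in pavement sap and 2.85 in trichome sap, and AT5G19250 read 6.69 in pavement sap and 3.91 in trichome sap. Their differences were thus close, 2.73 and 2.78, and both turned relative to the controls, to -0.42 and -0.37.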

How the data were processed

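The files hold 1 log2 signal for each probe set and array, which the authors produced using RMA according to the deposited notes on processing. Neither its version nor which arrays were processed together is stated in the sources used here. That the base is 2 was read from the spread of the values, 1.28 to 14.2, and is not recorded. RMA normally brings arrays to a shared distribution, and these columns do not have one, so other scalings were computed as well.

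Of 22810 probe sets, 13513 have exactly 1 gene in the platform annotation, 503 have several, and it lists none for 8794, of which 64 are control probe sets. A RefSeq gene table (TAIR10.1) supplied current names for 13436 of the 13513 by gene identifier. Its coordinates served only to order genes along each chromosome, so that direct neighbours could be found. The build behind the probe annotation is not stated. A gene's value is the mean over its probe sets, which left 13356 genes, 13265 of them nuclear. Above the ceiling were 4218 probe sets in pavement sap and 3169 in trichome sap. The number of arrays limits the precision.

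The ceiling is the highest of the readings of 27 Bacillus control probe sets, reached by the same value on both arrays. The 20 ribosomal protein genes were recognised from a list of loci written from general knowledge, since the annotation does not name them. The members, the gene lists and the families were chosen with earlier results of these data known. Genes named by rule were the 15 largest differences, the 10 highest signals on each array, up to 4 members of each list and those next to the thresholds. The other members with a gene name, the neighbouring pair and the families were added after their values were seen.

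Alternatives were 3 other scalings (lowess with a span of 0.3, quantile normalization, and centring on 18 hybridisation controls), other probe set choices, and other thresholds. Computation used Python 3.11.15, pandas 2.3.3, numpy 2.4.6 and statsmodels 0.14.6, and the selection was tested on simulated data. With 1 array per group no p-value was computed. Promoter and protein sequences were not used here.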

Additional observations from a re-analysis of the deposited data

Results flagged for a closer look

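A signal was found in probe sets that the comparisons do not use. Of 9233 probe sets that name no gene or several genes, without the 64 control probe sets, 1491 were above the ceiling in trichome sap, and 229 of these, or 15.4%, were higher in pavement sap by at least 2 on the log2 scale. They were singled out because they lie outside the genes described above, and 21 of the 229 name several genes. Their median difference was 3.50, and the largest was 7.42, from 11.1 in pavement sap against 3.67 in trichome sap. A difference of at least 2 in favour of trichome sap was found for 14. The genes that the probe sets without a name measure were not analysed here.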

How the results depend on the processing

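No paired analysis was possible because the groups share 1 replicate number and hold 1 array each. The promoter and protein comparisons planned at the start were not run, since no sequences were used. The number of genes chosen was 148 as reported, 19 with the lowess correction, 17 relative to the hybridisation controls and 36 with quantile normalization, and these 19, 17 and 36 are all among the 148. For the 17 this was fixed in advance, since centring lowers every difference by the same 3.15. The number chosen was 38 with a trichome signal above 4, 296 with a difference of at least 1 and 92 with a difference of at least 3. With the ceiling at the second highest control reading it was 185, with the brightest probe set 150, and without suffixed probe sets 146. The median difference of 3.31 became 0.81 with the lowess correction, 0.16 relative to the controls and 1.31 with quantile normalization. Of 58 members named in the text, all 58 had the same difference with the brightest probe set and 57 without suffixed probe sets, where AT3G26070 has no value. Each member rests on 1 probe set, so this too was fixed in advance.

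Relative to the controls, 2 of 4 photosynthesis members and 1 carbon metabolism member met the rule, and 0 in the 8 other lists. With quantile normalization 1 photosynthesis, 1 carbon metabolism, 1 signalling and 1 defence gene did, and with the lowess correction 1 signalling gene, and 0 in the other lists.

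With the lowess correction 17 of the 58 reversed: PSBW -1.51, AT4G21620 -0.35, AT1G78040 -0.38, UBC28 -2.21, MAC3B -0.16, NCL -1.57, AT5G54940 -1.43, ATG8F -0.77, AT1G76200 -1.23, AT5G64400 -1.61, AT1G13930 -1.42, AT4G32340 -1.75, AT3G22240 -2.91, AT5G39570 -3.22, SAMDC -0.45, NdhS -0.073 and BZIP60 -0.19. With quantile normalization 8 did: AT1G76200 -0.36, AT5G64400 -0.45, AT1G13930 -0.46, AT4G32340 -0.49, AT3G22240 -0.63, AT5G39570 -0.80, SAMDC -0.17 and BZIP60 -0.090. Relative to the controls 19 did: TPP2 -0.036, AT5G39570 -0.089, EXGT-A3 -0.12, PMEPCRF -0.16, AT4G14270 -0.31, SAMDC -0.36, AT5G19250 -0.37, AT5G19240 -0.42, RBP45B -0.42, FDH -0.46, OBE1 -0.77, NdhS -0.80, YLS5 -0.86, APA1 -0.95, PIFI -1.05, BZIP60 -1.05, AT3G24190 -1.09, AT2G47380 -1.14 and AT5G58950 -1.15. AT5G27850, which lies just under the ceiling, had a difference of -0.85 relative to the controls. The cause was not tested. Signals near the ceiling limit what can be said of the genes just inside it.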
